A study of Mus musculus with 6 samples.

Results

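The genes described here are 49 genes of the neuronal microtubule system, and the values are NOVA1 and NOVA2 binding clusters in their transcripts. The genes were taken by name as 27 microtubule-associated protein (MAP) genes, 3 tubulin genes and 19 motor genes, where motor covers kinesins, a kinesin light chain, dynein and dynactin subunits and the regulators of dynein. A cluster belonged to a gene when it shared 1 nt or more with the GENCODE vM1 span of the gene, on its strand. This placed 247 of the 9988 NOVA1 clusters and 419 of the 36591 NOVA2 clusters in the 49 genes, with 11605 and 20126 tags. By kind of gene, 164 NOVA1 and 309 NOVA2 clusters lay in MAP genes, 73 and 103 in motor genes and 10 and 7 in tubulin genes.

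The clusters came from HITS-CLIP, in which RNA is crosslinked to protein in tissue by ultraviolet light, recovered with an antibody against the protein and sequenced as short tags. Both proteins were studied in the cortex of wild-type CD1 mice at embryonic day 18.5, with 3 libraries per protein. By design the groups differ only in the protein recovered and hence in the antibody. NOVA1 or NOVA2 and its antibody therefore cannot be told apart in any comparison below. No library without antibody or from mice lacking a NOVA protein was used here, and the level of each RNA was not measured here. A cluster is listed if 2 or 3 libraries contributed and its tag count, pooled over libraries and not scaled to depth, is 10 or more. No value per library exists in the lists, so replicate error is unknown and no p-value is given. Intervals cover counting error only, and clusters of a gene are not replicates. Where intervals of 2 groups overlap, this does not exclude a difference between them. A fixed minimum of 10 tags admits weaker sites from the more deeply sampled protein, so cluster numbers and tag counts of NOVA1 and NOVA2 are compared only as they stand in the lists.

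Microtubules are polymers of alpha and beta tubulin that carry transport in axons and dendrites and steer the growth cone. Lattice-binding MAPs and doublecortins stabilise or bundle them, plus-end tracking proteins ride on their growing ends, stathmins and collapsin response mediators bind free tubulin, and kinesins and dynein walk along them with cargo, dynein with the help of the lissencephaly protein LIS1. Mutations in several of these genes, among them those for doublecortin, LIS1, tubulins and the dynein heavy chain, disturb the migration of cortical neurons. The NOVA proteins, found in neurons, bind RNA at clusters of the tetramer YCAY, where Y is C or U, and control alternative splicing.

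The windows that follow show what the bound RNA looks like where the tag counts were highest. Each is the stretch of 30 nt with the most YCAY starts within a leading cluster, written 5' to 3' on the strand of the gene as DNA, with positions in mm9 (NCBIM37). Capitals mark YCAY, searched as TCAT or its form TCAC, and as CCAT or its form CCAC, on the strand of the cluster only, and neighbouring matches can overlap. The choice of the window guarantees many matches, so the windows illustrate the sites and are not a measure of enrichment. Tag counts are those of whole clusters, and the window was taken from the cluster whose count is given first. An overlapping cluster of the other protein need not cover the window. In Dclk1 the NOVA1 cluster began past the end of the window. The Macf1 window with NOVA1 tags and the Mapt and Crmp1 CDS windows were covered by the other protein at most in part. Intron clusters that overlapped between the lists come first.
Dclk1 intron, chr3:55208369-55208398, plus strand, 614 NOVA2 and 50 NOVA1 tags: tcagCCATatttactCCACtatcCCACCAC
Clip1 intron, chr5:124089267-124089296, minus strand, 469 NOVA2 and 44 NOVA1 tags: accttctTCACTCATtTCACatatagTCAC
Clasp2 intron, chr9:113787160-113787189, plus strand, 459 NOVA2 and 192 NOVA1 tags: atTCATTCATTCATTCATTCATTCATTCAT
Macf1 intron, chr4:123156944-123156973, minus strand, 359 NOVA2 and 35 NOVA1 tags: tccccTCACCATCCATggCCATcctgTCAC
Kif21a intron, chr15:90833198-90833227, minus strand, 219 NOVA2 and 50 NOVA1 tags: gtCCATCCACCCATctacttactgacCCAT

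Intron clusters listed for NOVA2 alone are next, the first of them at a 9-nt exon of Macf1 and the last at a 114-nt exon of Kif2a.
Macf1 intron, chr4:123063895-123063924, minus strand, 146 NOVA2 tags: gtttcCCACtcccgtcCCATcTCACcCCAT
Crmp1 intron, chr5:37653522-37653551, plus strand, 137 NOVA2 tags: ttTCATctgtCCACCCATctacCCACCCAC
Kif3a intron, chr11:53386635-53386664, plus strand, 116 NOVA2 tags: gtatattTCACagtgacaTCACCATtTCAC
Kif2a intron, chr13:107759672-107759701, minus strand, 116 NOVA2 tags: cttttgttccaagCCATtttCCATttTCAT

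Clusters in 3' UTR and coding sequence (CDS) with many NOVA1 tags complete the set.
Kif5c 3' UTR, chr2:49629119-49629148, plus strand, 539 NOVA1 and 435 NOVA2 tags: tggatggctCCATttcgTCACatgttTCAC
Mapt 3' UTR, chr11:104192677-104192706, plus strand, 464 NOVA1 tags, and 18 and 16 tags in the overlapping NOVA2 clusters: gccgttaagCCATcttgtaaccCCATTCAT
Kif1b 3' UTR, chr4:148550742-148550771, minus strand, 349 NOVA1 and 444 NOVA2 tags: TCACCATccCCATgctataacagaatCCAT
Map1b 3' UTR, chr13:100195161-100195190, minus strand, 236 NOVA1 tags, and 30, 16 and 34 tags in the overlapping NOVA2 clusters: ggtggagtttcCCATttTCATcagagTCAT
Crmp1 CDS, chr5:37677636-37677665, plus strand, 238 NOVA1 and 10 NOVA2 tags: ggagtgCCACggctcccccctggtggTCAT

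Most of the microtubule genes held clusters of both proteins. At least 1 NOVA1 cluster lay in 39 of the 49 genes, where 12.7% of the 22380 protein-coding genes of the annotation had one, and at least 1 NOVA2 cluster lay in 41, where 22.7% of all had one. The genes were not chosen by their expression, but they were chosen with earlier results of these data known. No conclusion is therefore drawn from the contrast with all genes. The median span was 95.1 kb for MAP genes, 50.4 kb for motor genes and 3.71 kb for tubulin genes, against 56.6 kb for all genes with a NOVA2 cluster. Clusters of both proteins were listed in 38 genes. NOVA2 alone was listed in Stmn1, Kif5b and Klc1, and NOVA1 alone in Tubb2b. No cluster of either protein lay in 7 genes, which were Map7, Stmn3, Stmn4, Dctn1, Dync1li2, Nde1 and Kif5a. Among genes with a cluster, the median was 4 NOVA1 and 8 NOVA2 clusters in the microtubule genes and 2 and 2 in all protein-coding genes. By kind of gene, NOVA2 clusters lay in 24 of 27 MAP genes and 15 of 19 motor genes.

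**Figure D1:**
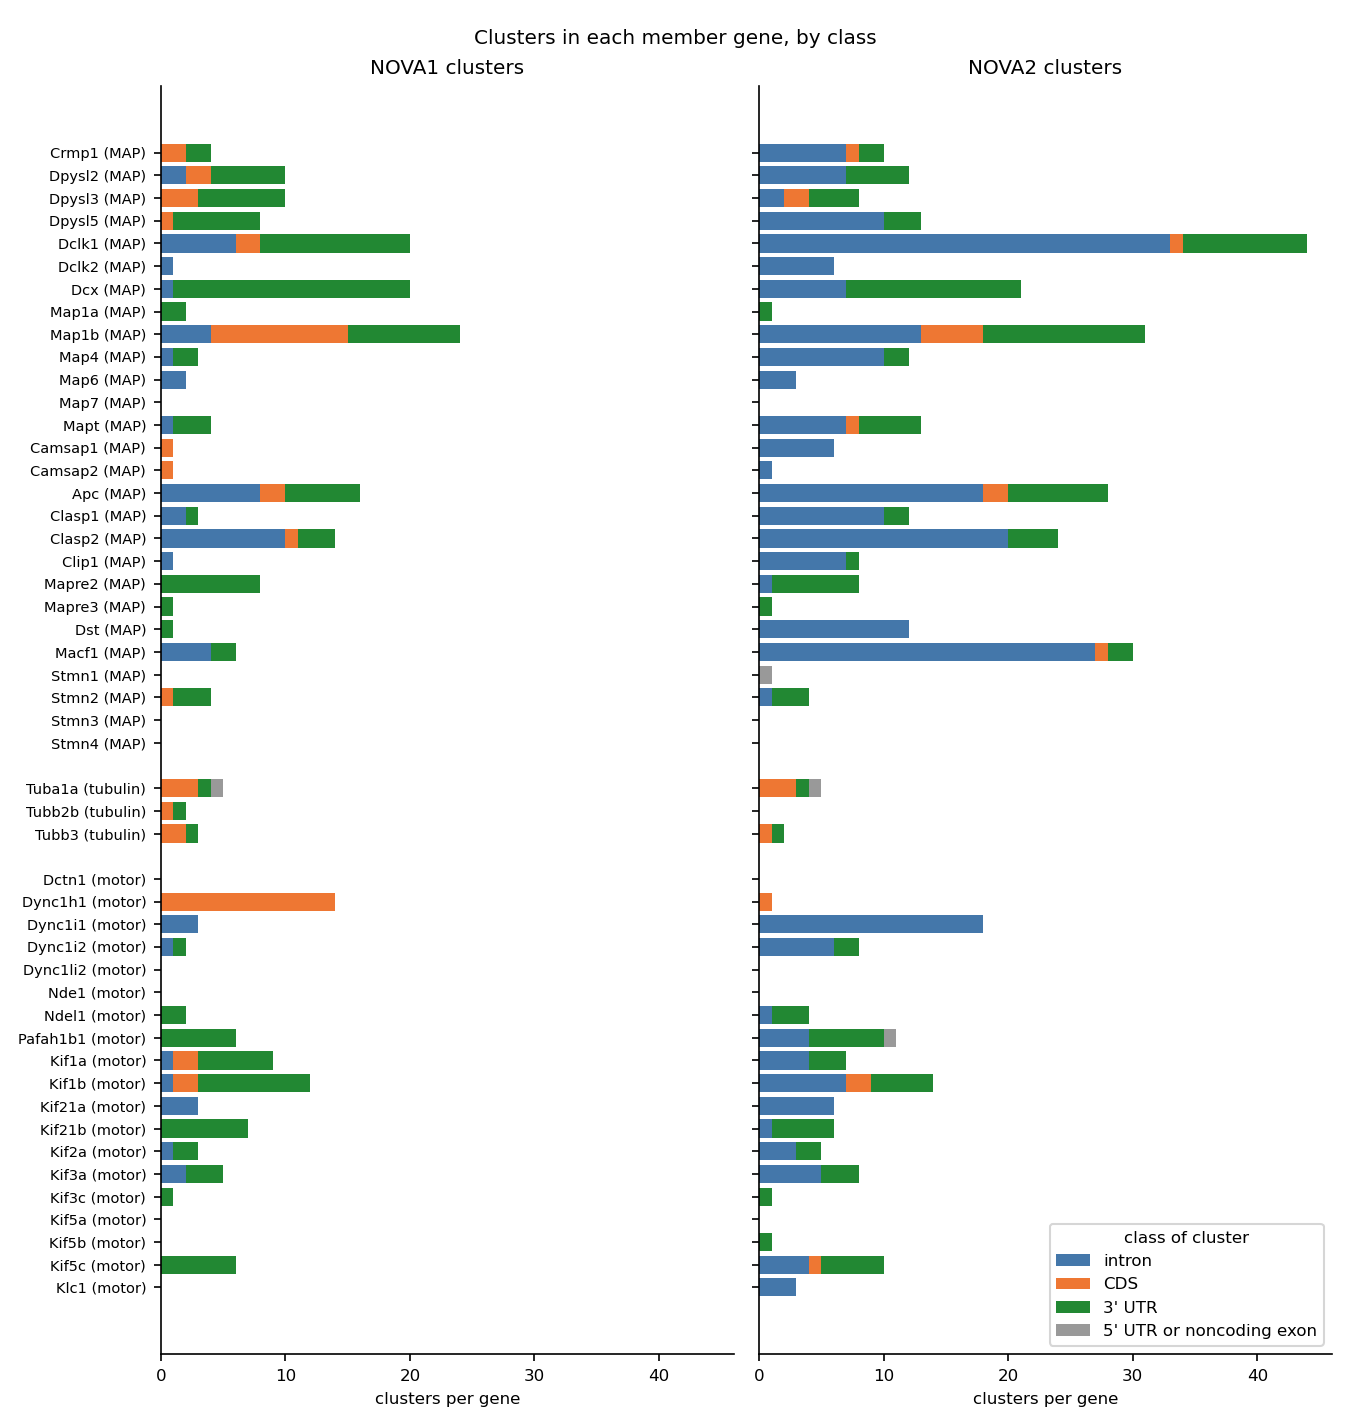
Number of NOVA1 (left) and NOVA2 (right) clusters in each of the 49 genes, coloured by class of cluster, with MAP genes on top, tubulins in the middle and motors at the bottom. Dclk1 has the longest NOVA2 bar with 44 clusters, mostly in introns, and Dync1h1 has 14 NOVA1 clusters, all in CDS, against 1 NOVA2 cluster.

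The class of a cluster (intron, CDS, 3' UTR) was the annotation that covered most of its nucleotides. NOVA1 clusters in these genes were mainly exonic. In MAP genes 26.2% of NOVA1 clusters were intronic (95% Wilson interval 20.1 to 33.4, 43 of 164), and in motor genes 16.4% (9.66 to 26.6, 12 of 73), where the share over all protein-coding genes was 45.5%. NOVA2 clusters were mainly intronic, at 67.3% in MAP genes (61.9 to 72.3, 208 of 309) and 60.2% in motor genes (50.5 to 69.1, 62 of 103), where the share over all protein-coding genes was 84.0%. The intervals of MAP and motor genes overlapped for both proteins, and a difference in intron share between the kinds of gene was not tested.

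The 3' UTR took up the larger part of the remainder. It held 57.3% of NOVA1 clusters in MAP genes (49.7 to 64.6) and 58.9% in motor genes (47.4 to 69.5), with 43.3% over all protein-coding genes. For NOVA2 the 3' UTR share was 28.2% in MAP genes (23.4 to 33.4) and 35.0% in motor genes (26.4 to 44.5), with 13.7% over all. CDS held 16.5% of NOVA1 clusters in MAP genes (11.6 to 22.9) and 24.7% in motor genes (16.2 to 35.6), where 9.93% was the share over all protein-coding genes. Of the 18 CDS clusters in motor genes, 14 lay in Dync1h1. For NOVA2 the CDS share was 4.21% in MAP genes (2.47 to 7.06) and 3.88% in motor genes (1.52 to 9.56), and 1.68% over all. Counted by tags instead of clusters, 72.4% of NOVA1 tags in the 49 genes were in 3' UTR and 12% in introns, and 39.4% of NOVA2 tags were in 3' UTR and 58.0% in introns.

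**Figure D2:**
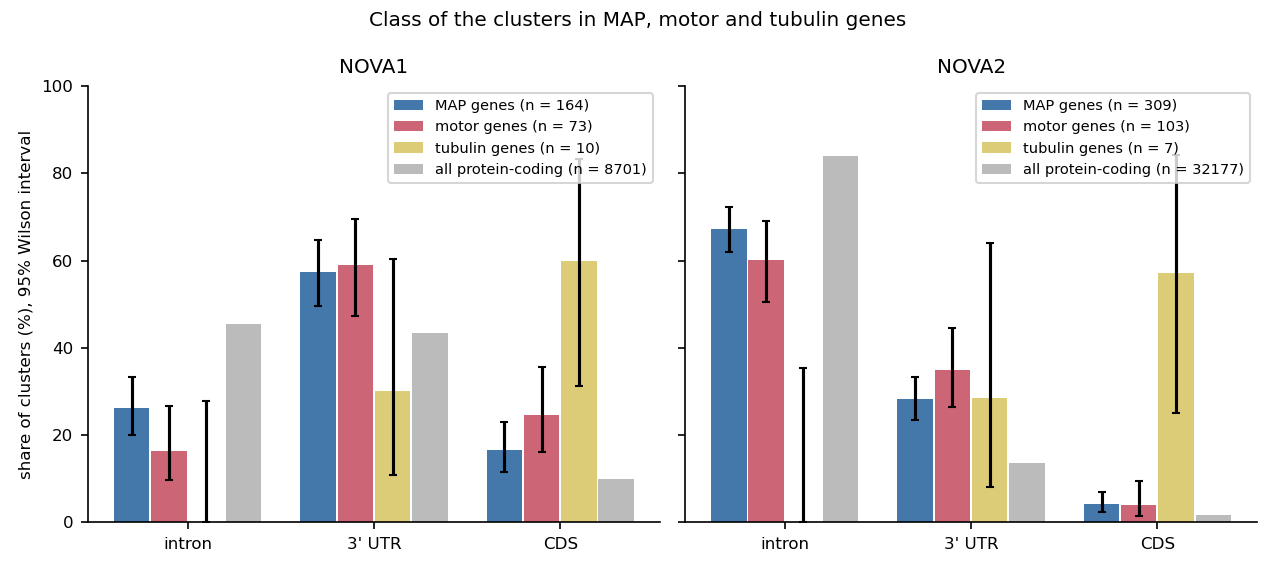
Share of NOVA1 (left) and NOVA2 (right) clusters in introns, 3' UTR and CDS for MAP, motor and tubulin genes, as percent of the clusters of that kind of gene with 95% Wilson intervals, and for all protein-coding genes in grey. The MAP and motor bars lie within each other's intervals or close to them, and the grey intron bar is higher than both, at 45.5% for NOVA1 and 84.0% for NOVA2.

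Of the NOVA1 clusters in the 49 genes, 177 (71.7%, 65.7 to 76.9) overlapped a NOVA2 cluster by at least 1 nt, where 80.3% did over all protein-coding genes. NOVA2 clusters overlapped a NOVA1 cluster in 182 cases (43.4%, 38.8 to 48.2), where 21.9% did over all. The class of the cluster separated the shared from the unshared clusters more than the kind of gene did. NOVA1 clusters overlapped a NOVA2 cluster in 53 of 55 cases in introns, in 106 of 140 in 3' UTR and in 17 of 51 in CDS. Dync1h1 alone held 14 of these CDS clusters, of which 1 overlapped. In the other direction, 52 of 270 intronic NOVA2 clusters (19.3%, 15.0 to 24.4) overlapped a NOVA1 cluster, against 111 of 125 in 3' UTR and 18 of 21 in CDS. Sharing by class was not computed over all protein-coding genes, so these counts are not shown to be particular to the microtubule genes. Intronic NOVA2 clusters without a NOVA1 partner had a median of 17 tags, and those with a partner 69.5 tags.

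A difference in sharing between MAP and motor genes was not resolved. The share of NOVA1 clusters that overlapped a NOVA2 cluster was 76.8% in MAP genes (69.8 to 82.6, 126 of 164) and 60.3% in motor genes (48.8 to 70.7, 44 of 73). Their intervals overlapped only between 69.8% and 70.7%, which does not exclude a difference, and the difference was not tested. Without Dync1h1, the motor gene with the most NOVA1 clusters, it was 72.9% (60.4 to 82.6), inside the interval of the MAP genes. Among NOVA2 clusters 41.4% in MAP genes (36.1 to 47.0) and 45.6% in motor genes (36.3 to 55.2) overlapped a NOVA1 cluster.

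Lattice-binding MAPs stabilise and space microtubules, and Map1b, an early MAP of growing axons, held the most NOVA1 clusters of all 49 genes. Map1b (chr13:100191419-100286557, minus strand) had 24 NOVA1 clusters with 1654 tags and 31 NOVA2 clusters with 1465 tags. Its 3' UTR was lined with clusters of both proteins, 9 of NOVA1 and 13 of NOVA2, with 1179 and 804 tags. Its CDS held 11 NOVA1 clusters with 405 tags and 5 NOVA2 clusters with 77 tags, and each of the 5 overlapped a NOVA1 cluster. All 4 intronic NOVA1 clusters overlapped NOVA2 clusters, which had 49, 107, 220 and 70 tags where NOVA1 had 11, 28, 21 and 10. All 13 intronic NOVA2 clusters of Map1b lay in its longest intron of 63.8 kb. In the lists as deposited, NOVA1 had more tags in total in the exons and NOVA2 in the introns of the same gene.

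Mapt, which encodes the axonal MAP tau (chr11:104092704-104193404, plus strand), also had more NOVA1 tags in its 3' UTR and more NOVA2 tags in its introns. Unlike Map1b, Mapt had no NOVA1 cluster in its CDS. NOVA1 had 3 clusters in its 3' UTR with 110, 435 and 464 tags, and they were 743, 1368 and 1774 nt wide. NOVA2 had 5 clusters there with 23, 51, 18, 16 and 21 tags. In an intron, 533 nt upstream of an exon of 217 nt, NOVA2 had 302 tags and the overlapping NOVA1 cluster 66. NOVA2 alone was listed in 6 further intron sites of Mapt with 10 to 42 tags and at a CDS site with 55 tags. Of these, the clusters of 10 and 11 tags had further copies in the genome.

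The other lattice-binding MAPs had fewer NOVA1 clusters. Map4, a broadly expressed MAP, had 3 NOVA1 clusters with 42 tags and 12 NOVA2 clusters with 253 tags, 10 of them intronic. Map6, which protects microtubules from cold, had 2 and 3 clusters, all in introns. Map1a, a MAP of mature neurons, had 2 NOVA1 clusters and 1 NOVA2 cluster in its 3' UTR with 46 and 21 tags.

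Doublecortin proteins bind between protofilaments in migrating neurons, and their genes held 41 NOVA1 and 71 NOVA2 clusters. Dclk1 (chr3:55046448-55342986, plus strand) had the most NOVA2 clusters of all 49 genes, 44 with 1999 tags, of which 33 were intronic and spread over 8 introns. The strongest of them had 614 tags, lay 23515 nt from the nearest exon and overlapped a NOVA1 cluster of 50 tags. NOVA1 had 20 clusters in Dclk1 with 656 tags, 12 of them in the 3' UTR with 475 tags. Dcx, on the X chromosome, was bound mainly in its 3' UTR of 7712 nt, by 19 of 20 NOVA1 clusters (891 of 901 tags) and 14 of 21 NOVA2 clusters (1516 of 1713 tags). Its highest NOVA2 cluster had 604 tags and overlapped NOVA1 clusters of 216 and 180 tags. Dclk2 had 6 intronic NOVA2 clusters with 168 tags and 1 NOVA1 cluster with 10 tags.

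The collapsin response mediators, tubulin-binding proteins in semaphorin signalling, included the widest contrasts between the lists. In Crmp1 (chr5:37633319-37683371, plus strand) a CDS cluster had 238 NOVA1 tags and 10 NOVA2 tags, the largest ratio among all 1-to-1 overlaps in these genes. The same gene had 7 intronic NOVA2 clusters with 330 tags, up to 137 tags each, and 0 intronic NOVA1 clusters. Dpysl2 showed the converse in an intron, where a NOVA2 cluster of 273 tags overlapped a NOVA1 cluster of 12 tags, the lowest ratio of the set. Its 3' UTR held 6 NOVA1 clusters with 562 tags and 5 NOVA2 clusters with 834 tags. Dpysl3 was among 7 genes with more NOVA1 than NOVA2 clusters, 10 against 8, and Dpysl5 had 8 and 13. The other 6 were Map1a, Tubb2b, Tubb3, Dync1h1, Kif1a and Kif21b, so 7 of the 42 genes with a cluster were of this kind, where 8.04% of the 5275 protein-coding genes with a cluster were.

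Stathmins, which sequester tubulin dimers, were the family with the fewest clusters in MAP genes beside the minus-end binding proteins. Stmn2, enriched in growth cones, had 4 NOVA1 clusters with 93 tags and 4 NOVA2 clusters with 54 tags, 3 of each in the 3' UTR. Stmn1 had 1 NOVA2 cluster of 19 tags in an exon of a noncoding transcript, and Stmn3 and Stmn4 had no cluster. The spans of Stmn1 and Stmn3 were 5.5 and 8.0 kb, short beside the median of the MAP genes.

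Plus-end tracking proteins held 43 NOVA1 and 81 NOVA2 clusters, and 21 of the 43 NOVA1 clusters (48.8%, 34.6 to 63.2) were intronic, where the share was 26.2% over all MAP genes and 45.5% over all protein-coding genes. Of the 43 NOVA1 clusters 39 overlapped a NOVA2 cluster. Clasp2, which anchors plus ends at the cell cortex and acts downstream of axon guidance signals, carried much of this (chr9:113650591-113828815, plus strand). It had 14 NOVA1 clusters with 610 tags and 24 NOVA2 clusters with 1837 tags, 10 and 20 of them in introns. A stretch of 18.7 kb (chr9:113769238-113787891), 10.5% of the gene, runs from an 18-nt to a 24-nt cassette exon and held 9 of the 10 intronic NOVA1 clusters and 15 of the 20 intronic NOVA2 clusters. By tags it held 96.8% of the intronic NOVA1 tags and 94.0% of the intronic NOVA2 tags. Its ends were the outermost cassette exons of at most 63 nt that lay within 500 nt of a NOVA2 cluster. The stretch was thus drawn from the clusters, and these shares describe it and do not test it. The highest cluster there, with 459 NOVA2 and 192 NOVA1 tags, covered the TCAT repeat shown above.

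Apc, which links plus ends to Wnt signalling, had 16 NOVA1 clusters with 422 tags and 28 NOVA2 clusters with 1440 tags. All 8 of its intronic NOVA1 clusters, of 11 to 35 tags, overlapped intronic NOVA2 clusters, which had 19 to 232 tags. The highest Apc cluster, of 320 NOVA2 tags in the 3' UTR, had a further copy elsewhere in the genome. Clip1, the first plus-end tracking protein described, had 8 NOVA2 clusters with 665 tags, of which 469 fell in a single intronic cluster 129 nt upstream of a 33-nt cassette exon. The only NOVA1 cluster of Clip1, with 44 tags, lay at the same place. Clasp1 had 3 and 12 clusters with 80 and 521 tags. The end-binding protein genes Mapre2 and Mapre3 were bound in the 3' UTR, Mapre2 by 8 NOVA1 and 7 of 8 NOVA2 clusters and Mapre3 by 1 of each with 26 and 27 tags.

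**Figure D3:**
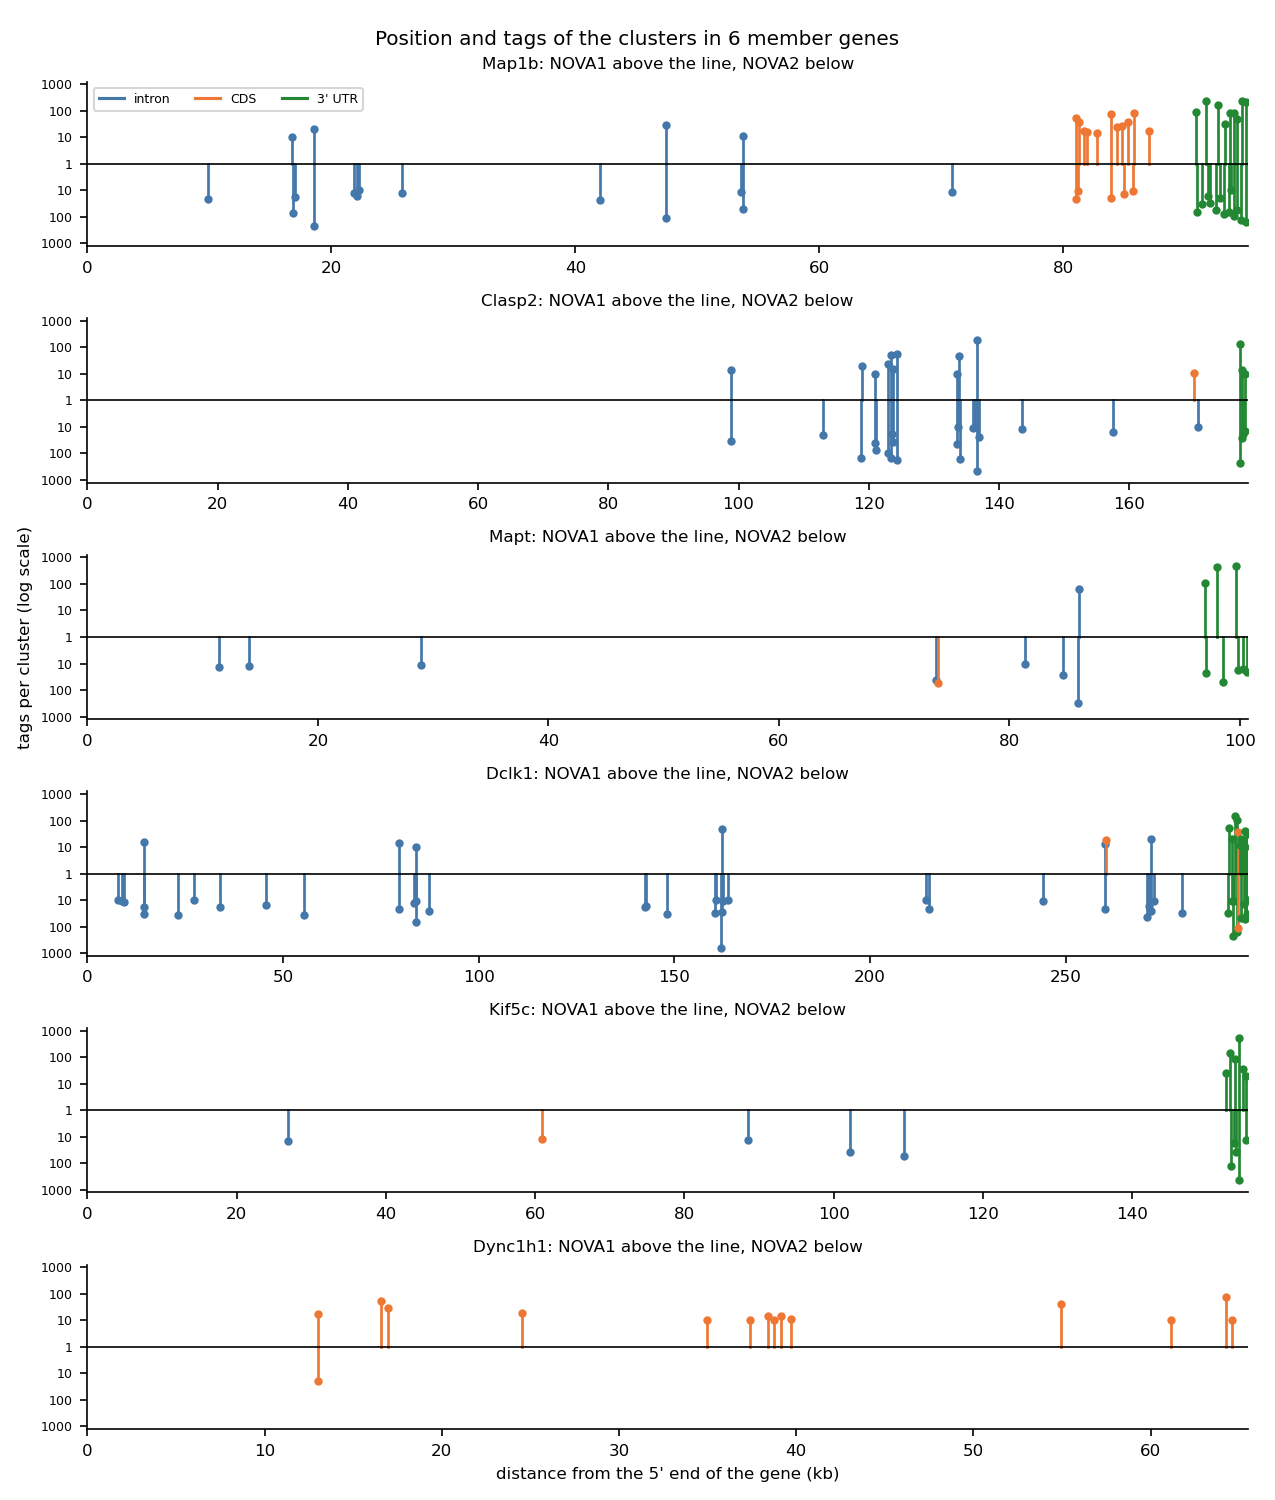
Position of each cluster in 6 genes as distance from the 5' end of the gene in kb, with the tag count on a log scale, NOVA1 above and NOVA2 below the line, coloured by class. Clusters of both proteins crowd the 3' UTR of Map1b, Dclk1 and Kif5c, the intronic clusters of Clasp2 gather in a short stretch in the 3' part of the gene, and Dync1h1 carries NOVA1 clusters along its CDS with a single NOVA2 cluster.

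The spectraplakins Macf1 and Dst, giant linkers of actin and microtubules, had 39 of 42 NOVA2 clusters in introns (92.9%, 81.0 to 97.5), an interval that held the 84.0% of all protein-coding genes. Macf1 had 30 NOVA2 clusters with 1332 tags and 6 NOVA1 clusters with 175 tags, and 5 of the 6 overlapped NOVA2 clusters. The highest NOVA2 clusters of Macf1 had 359, 190 and 146 tags, and NOVA1 had 35 and 39 tags at the first and second and none at the last. Dst had 12 intronic NOVA2 clusters of 10 to 48 tags and 1 NOVA1 cluster of 10 tags, in the 3' UTR. The minus-end binding proteins Camsap1 and Camsap2 had 6 and 1 intronic NOVA2 clusters and 1 NOVA1 cluster each, in CDS, and none overlapped.

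The tubulin genes had no intronic cluster. Tuba1a, the main alpha tubulin of young neurons, had 5 clusters of each protein, each overlapping its counterpart, with 341 NOVA1 and 100 NOVA2 tags. Tubb3, the neuronal beta tubulin, had 3 NOVA1 clusters with 202 tags and 2 NOVA2 clusters with 54 tags. Tubb2b had 2 NOVA1 clusters with 77 tags and no NOVA2 cluster. All 10 NOVA1 and 6 of the 7 NOVA2 tubulin clusters had further copies in the genome, counted as matches of 90% identity or more along 50% or more of the cluster. How tags that align to several places were handled is not given in the sources used here, so these counts may be shared with other tubulin genes or pseudogenes and are uncertain. In MAP genes 6 of 164 NOVA1 and 8 of 309 NOVA2 clusters had such copies, and in motor genes 0 of 73 and 2 of 103.

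Kinesins move cargo towards plus ends, and the 10 kinesin genes held 46 NOVA1 clusters with 2402 tags and 58 NOVA2 clusters with 3484 tags. Of the NOVA1 clusters 34 (73.9%, 59.7 to 84.4) were in 3' UTR, with 90.2% of the tags. Kif5c, a neuronal conventional kinesin heavy chain (chr2:49474818-49630298, plus strand), had all 6 NOVA1 clusters in its 3' UTR with 850 tags, and 5 of its 10 NOVA2 clusters there with 630 tags. Its highest cluster had 539 NOVA1 and 435 NOVA2 tags. The related genes Kif5a and Kif5b had 0 NOVA1 clusters, and Kif5b had 1 NOVA2 cluster of 13 tags in its 3' UTR. Klc1, the light chain that couples conventional kinesin to cargo, had 3 intronic NOVA2 clusters of 10 to 19 tags.

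Kif1b and Kif1a carry synaptic vesicle precursors along axons. Kif1b (chr4:148550428-148681802, minus strand) had 12 NOVA1 clusters with 695 tags and 14 NOVA2 clusters with 1049 tags. Its main 3' UTR clusters had 349 and 127 NOVA1 tags where NOVA2 had 444 and 216. Other 3' UTR sites of Kif1b included NOVA1 clusters of 42 and 34 tags where NOVA2 had 11 and 22. Further NOVA1 clusters there, of 12 to 22 tags, had no NOVA2 partner. Kif1a, in the same unscaled counts, had 308 NOVA1 tags in 6 clusters of its 3' UTR and 31 NOVA2 tags in 3 clusters. The 3 NOVA2 clusters, of 10, 11 and 10 tags, overlapped NOVA1 clusters of 127, 51 and 47 tags. In the 3' UTR of Kif21b, a processive kinesin of dendrites and axons, a proximal site had 103 NOVA1 and 14 NOVA2 tags. At another 3' UTR site Kif21b had 73 NOVA1 and 370 NOVA2 tags. Its relative Kif21a, which was bound only in introns, had 3 NOVA1 clusters of 11 to 50 tags, and NOVA2 had 89 to 219 tags at the same sites. Kif3a, a subunit of the heterotrimeric kinesin, had 5 and 8 clusters, Kif2a, a microtubule-depolymerising kinesin, 3 and 5, and Kif3c 1 and 1.

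Cytoplasmic dynein is the minus-end directed motor, and its subunits differed in the class and the list of their clusters. Dync1h1, the heavy chain (chr12:111839662-111905155, plus strand), had 14 NOVA1 clusters with 328 tags, from 10 to 77 tags each, all in CDS and along most of the gene. A single NOVA2 cluster of 20 tags overlapped a NOVA1 cluster of 18 tags, and the other 13 NOVA1 clusters had no NOVA2 partner. Dync1i1, the neuronal intermediate chain, had 18 NOVA2 clusters with 527 tags, all in introns, and 3 NOVA1 clusters with 35 tags at the same sites as 3 of them. Dync1i2, the other intermediate chain, had 2 and 8 clusters. The light intermediate chain Dync1li2 and the dynactin subunit Dctn1 had none. Among regulators, Pafah1b1, which encodes LIS1, had 6 NOVA1 clusters with 317 tags and 11 NOVA2 clusters with 371 tags. At its highest site, in the 3' UTR, a NOVA1 cluster of 164 tags overlapped NOVA2 clusters of 164 and 26 tags. Ndel1, a partner of LIS1, had 2 and 4 clusters, and its relative Nde1 had none.

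Tag counts were compared at clusters that overlapped 1 to 1 and had the same class in both lists. The log2 ratio of NOVA1 to NOVA2 tags, unscaled, had a median of -2.13 in introns (95% interval of the median -2.31 to -1.58, n = 51 pairs), 0.20 in 3' UTR (-0.36 to 0.38, n = 66) and 1.31 in CDS (0.37 to 2.17, n = 15). Over all protein-coding genes these medians were -2.04, -0.40 and -0.12. NOVA1 had more tags than NOVA2 in 1 of 51 intron pairs, 34 of 66 pairs in 3' UTR and 13 of 15 in CDS. Pairs enter only when both counts reach 10, which narrows the ratios where a protein is sparse. As the counts are not scaled to depth, the sign of a ratio cannot be read from these values. The study reports more unique tags in total for NOVA2 than for NOVA1. Scaling to those totals would raise every ratio by the same amount, and was not done here. The interval of the introns lay below the other intervals, and those of 3' UTR and CDS overlapped. Of the 15 CDS pairs, 5 were in Map1b and 4 in tubulin genes, whose counts are uncertain.

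In introns MAP and motor genes had overlapping intervals, with medians of -2.0 (-2.42 to -1.43, n = 39) and -2.25 (-2.47 to -0.86, n = 12). In 3' UTR the medians were -0.34 in MAP genes (-0.51 to 0.30, n = 42) and 0.43 in motor genes (-0.19 to 1.0, n = 22), and their intervals overlapped. The 3' UTR pairs varied widely within both kinds, from -2.47 to 3.09 in MAP genes and from -2.34 to 3.67 in motor genes, the last in Kif1a.

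**Figure D4:**
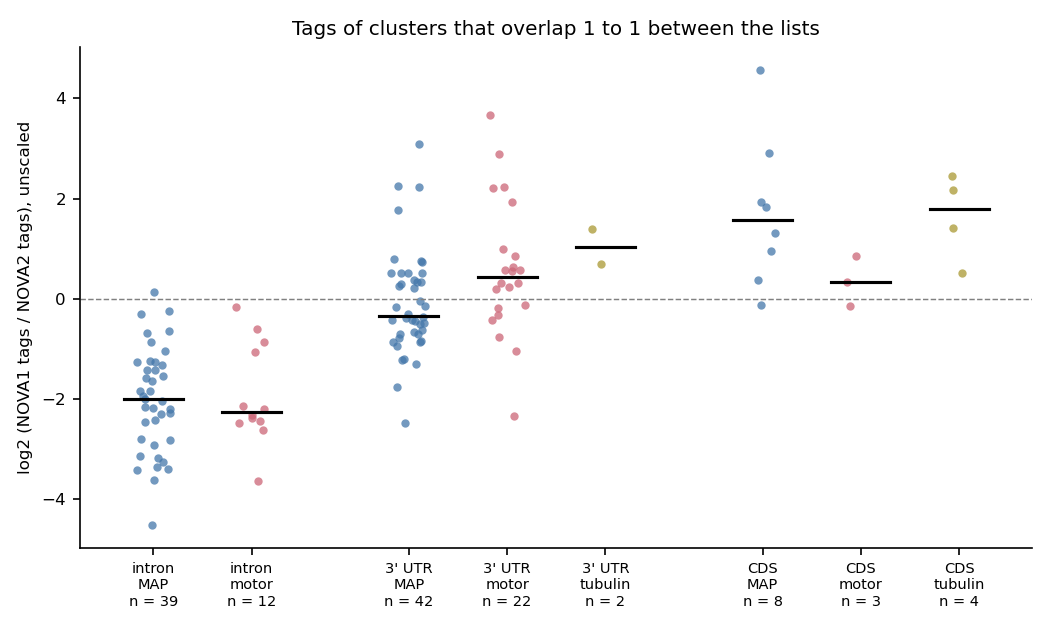
log2 ratio of NOVA1 to NOVA2 tags, not scaled to depth, for each pair of clusters that overlap 1 to 1 (points), by class of cluster and kind of gene, with the median as a bar. Intron pairs centre on -2.0 in MAP and -2.25 in motor genes, 3' UTR pairs spread on both sides of 0, and CDS pairs lie mostly above 0.

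Intronic clusters were next placed relative to the nearest annotated exon. Of intronic NOVA2 clusters in the 49 genes 67 of 270 (24.8%, 20 to 30.3) lay within 500 nt of an exon, where 10.3% did over all protein-coding genes. For NOVA1 it was 13 of 55 (23.6%, 14.4 to 36.3), where 12.2% did over all. The genes also have more intron sequence close to exons. In genes with a NOVA2 cluster, 19.5% of the intron nucleotides of the microtubule genes lay within 500 nt of an exon and 11.0% of those of all protein-coding genes. Measured at cluster midpoints and divided by that share, NOVA2 clusters were near exons 1.12 times as often as intron length alone would place them (0.889 to 1.39). Over all protein-coding genes with a NOVA2 cluster this fold was 0.866 (0.835 to 0.899). It was 1.44 in MAP genes (1.13 to 1.81) and 0.513 in motor genes (0.266 to 0.932), and the latter interval held the value of all genes. The intervals of MAP and motor genes did not overlap. Without Clasp2, an alternative chosen after the data were seen, the fold in MAP genes was 1.22 (0.914 to 1.61). That interval overlapped the one of the motor genes only between 0.914 and 0.932. The separation of the intervals thus depended on 1 gene, and the difference itself was not tested. For NOVA1 the folds were 1.37 in MAP genes (0.776 to 2.23) and 0.685 in motor genes (0.193 to 1.84), with overlapping intervals.

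Of the clusters within 500 nt, many had a cassette exon as their nearest exon, meaning an exon that some annotated protein-coding transcript includes and another skips. For NOVA2 it was 35 of 67 (52.2%, 40.5 to 63.7), where 21.5% was the share over all protein-coding genes, and 31 of 56 in MAP genes against 4 of 11 in motor genes. For NOVA1 it was 8 of 13 (61.5%, 35.5 to 82.3), where 26.0% was the share over all, and 6 of the 13 were in Clasp2. Without Clasp2 they were 42.6% for NOVA2 (30.3 to 55.8) and 28.6% for NOVA1 (8.22 to 64.1).

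The 26 cassette exons close to NOVA2 clusters, 22 in MAP and 4 in motor genes, mostly kept the reading frame. A multiple of 3 nt was found in 22 of the 26 (84.6%, 66.5 to 93.8), against 113 of the 173 other cassette exons in these genes with a NOVA2 cluster (65.3%, 58.0 to 72.0). Over all protein-coding genes the shares were 66.9% near NOVA2 clusters, inside the interval of the 26 exons, and 49.4% elsewhere. Clasp2, Clip1 and Macf1 each held several of the 26, so these exons are not independent. Exons of at most 51 nt, often called microexons, made up 9 of the 26 (34.6%, 19.4 to 53.8), against 22% of the other cassette exons of these genes and 28.4% of the cassette exons near NOVA2 clusters over all protein-coding genes, both inside that interval. They were a 33-nt exon of Clip1 with 469 NOVA2 and 44 NOVA1 tags nearby, exons of 27, 18, 27 and 24 nt of Clasp2 with 199, 150, 113 and 25 NOVA2 tags, a 9-nt exon of Macf1 with 146, a 39-nt exon of Kif21a with 89, a 27-nt exon of Kif5c with 53 and a 27-nt exon of Kif1b with 10. Longer ones included a 63-nt exon of Clasp2 with 222 NOVA2 and 57 NOVA1 tags and a 114-nt exon of Kif2a with 116 NOVA2 tags. Whether the inclusion of these exons depends on NOVA was not tested here.

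YCAY was counted per possible start position in each cluster and in flanks 200 to 500 nt from either end. At least 1 YCAY was present in 241 of 247 NOVA1 clusters (97.6%, 94.8 to 98.9) and 417 of 419 NOVA2 clusters (99.5%, 98.3 to 99.9), and in 98.3% and 99.4% of the clusters of all protein-coding genes. Density in NOVA1 clusters was 25.0 per 1000 positions against 17.4 in flanks, a fold of 1.44 (95% exact interval 1.35 to 1.53), below the fold of 2.04 over all protein-coding genes. In NOVA2 clusters it was 34.5 against 18.1, a fold of 1.91 (1.81 to 2.01), where all genes gave 2.30.

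By class of cluster, in introns it was 2.92 for NOVA1 (2.54 to 3.36) and 2.31 for NOVA2 (2.17 to 2.47), close to the 2.81 and 2.41 of all protein-coding genes. In 3' UTR it was 1.19 for NOVA1 (1.09 to 1.29) and 1.29 for NOVA2 (1.17 to 1.42), and both intervals lay below the values of all protein-coding genes, 1.54 and 1.71. In CDS it was 1.44 for NOVA1 (1.24 to 1.67) and 2.14 for NOVA2 (1.67 to 2.74), the latter with an interval that overlapped that of the NOVA2 introns. NOVA1 clusters in 3' UTR without a NOVA2 partner had a fold of 1.07 (0.89 to 1.29), not distinguishable from their flanks. The flanks of a 3' UTR cluster often lie in the same 3' UTR and, in genes such as Dcx and Map1b, in or beside further clusters. Those of a CDS cluster were taken in the genome and can lie in introns. A CDS fold can thus compare coding with intron sequence. In the CDS of Dync1h1 the fold was 1.32 (0.94 to 1.83), also not distinguishable from the flanks at this number of clusters, whereas Clasp2 had 2.13 for NOVA1 (1.56 to 2.89) and 2.08 for NOVA2 (1.65 to 2.62). MAP and motor genes had overlapping intervals in each class.

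**Figure D5:**
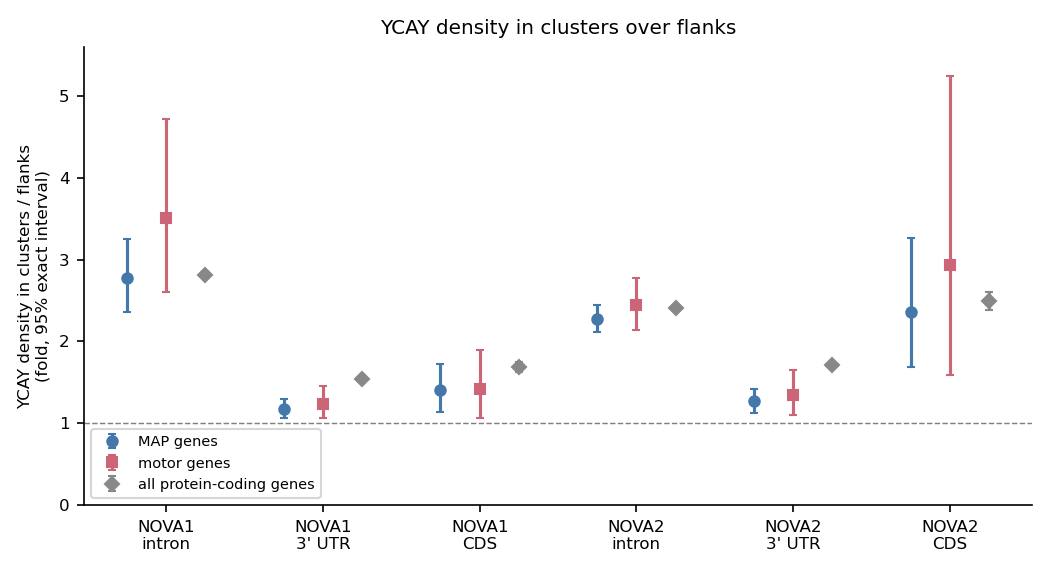
Fold of YCAY density in clusters over flanks 200 to 500 nt away, by protein and class of cluster, for MAP genes, motor genes and all protein-coding genes, with 95% exact intervals. Intron folds lie between 2.28 and 3.51 and 3' UTR folds of MAP and motor genes between 1.18 and 1.35, below the grey 1.54 and 1.71.

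Per length of intron, summed over the genes, NOVA2 had 7.11 clusters per 100 kb in MAP genes and 4.80 in motor genes, and 4.78 in all protein-coding genes with a NOVA2 cluster. NOVA1 had 1.47 and 0.930 per 100 kb, with 1.08 over all genes with a NOVA1 cluster. By this measure the NOVA2 order was led by Apc (20.4), Kif3a (16.1), Map1b (15.6), Crmp1 (15.0), Camsap1 (12.5), Dpysl5 (12.3) and Dync1i2 (12.3), while Clasp2 and Dclk1 had 11.7 each. Per 10 kb of 3' UTR, MAP genes had 11.0 NOVA1 and 10.2 NOVA2 clusters and motor genes 8.79 and 7.36. These are cluster densities and include genes without any cluster, except in the values for all protein-coding genes.

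A list of 74 further microtubule genes gave the wider family for comparison. NOVA1 clusters lay in 31 and NOVA2 clusters in 43 of them, with 29 in common, fewer in proportion than in the 49 genes. Both lists were made with earlier results of these data known, so no conclusion is drawn from this contrast. They held 90 NOVA1 and 276 NOVA2 clusters, of which 34 and 221 were intronic. MAP genes of this list had clusters in 14 of 28 for NOVA1 and 19 of 28 for NOVA2, and motor genes in 13 and 20 of 38. Beyond the annotated 3' ends, no cluster of the same protein and strand that touched no gene lay within 10 kb downstream of any of the 39 or 41 microtubule genes with a cluster, which allows a share of up to 7.69% and 7.32%. Of all protein-coding genes with a cluster, 4.66% had such a NOVA1 cluster and 6.78% such a NOVA2 cluster.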

How the data were processed

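The authors aligned HITS-CLIP reads of 3 NOVA1 and 3 NOVA2 libraries to mm9 with Novoalign (version not given in the sources used here), removed PCR duplicates and pooled the unique tags of each protein into clusters. The deposited lists give a whole-number tag count per cluster, with a minimum of 10, pooled over the libraries. The study calls the measure peak height. Whether the count is a sum of tags or a maximum depth is not stated, and in the latter case the sums given here are sums of depths. Library depth is not in the lists, and 0 columns of single libraries were set aside.

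Clusters were joined to GENCODE vM1 (NCBIM37) on their strand and classed by the annotation covering most nucleotides. Map1a, Map1b, Map4, Map6 and Map7 carry older symbols there. Shares have 95% Wilson intervals, medians exact binomial intervals and YCAY folds exact conditional intervals. No test was run, as counts are pooled. The genes described by name were, per kind of gene and list, the 5 with the most tags and the 5 with the most clusters, all tubulins, genes with more NOVA1 than NOVA2 clusters and genes without a cluster in a list. Clusters were, per kind and list, the 5 highest, the 3 highest unshared, the highest in CDS and the highest intronic one within 500 nt of an exon. Other genes and clusters were added after their values were seen. A sequence window of Dync1h1 is not reported here. Genes, lists and rules were chosen with earlier results of these data known. Alternatives covered overlap, tag minimum, list length, class rules and gene choice. Python 3.11.15, NumPy 2.4.6, SciPy 1.17.1, pysam 0.24.0, matplotlib 3.10.9 and BLAST+ 2.17.0 were used, and the functions were checked on simulated data.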

Additional observations from a re-analysis of the deposited data

How the results depend on the processing

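Of 68 values computed under alternatives for 18 results, 54 fell inside the reported 95% interval, or within 1.5 times a reported number of genes, and 14 did not. None changed sign beyond its interval. Within its interval of -0.36 to 0.38, the median log2 ratio of 3' UTR pairs did change sign. It was 0.20 over 1-to-1 pairs, -0.07 over all overlapping pairs and -0.34 in MAP genes alone. Reducing the NOVA2 list to its 9988 highest clusters lowered the share of NOVA1 clusters that overlap NOVA2 from 71.7% to 44.9%, raised that of NOVA2 clusters that overlap NOVA1 from 43.4% to 71.2% and lowered the intron share of NOVA2 clusters in MAP genes from 67.3% to 57.1%. With at least 20 tags in both lists, the first was 64.8%, the last 61.0% and the intron share of NOVA1 clusters in motor genes 5.71%, from 16.4%. The YCAY fold of NOVA1 clusters was 1.32 at 20 or more tags, 1.24 in exons and 2.92 in introns, and that of NOVA2 clusters 1.39 in exons and 2.31 in introns. The median ratio of 3' UTR pairs in motor genes alone was 0.43. The alternatives without clusters with further copies, and those without a single gene for the sharing of MAP or motor clusters and for the exon-near clusters, were chosen after seeing the data. Without Dync1h1 the share of NOVA1 clusters in motor genes that overlap NOVA2 was 72.9%, and without Clasp2 the share of NOVA1 clusters near cassette exons was 28.6%. The cause of these shifts was not tested, beyond the fewer clusters that each alternative keeps.

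No paired analysis was possible because each list gives a single pooled count per cluster, which also leaves no library to omit. Depth limits the lists at 10 tags, and a site with fewer tags is not listed. RNA levels, the antibody and the reach of each library were not measured separately here, and clusters under 10 tags were not analysed here.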
